A study of Homo sapiens with 2 samples.

Results

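The genes that encode 10 GC-box and CCAAT-box binding factors (SP1, SP2, SP3, SP4, NFYA, NFYB, NFYC, KLF5, KLF6 and KLF10) were followed through FAIRE-seq peak lists of HepG2 cells, an established human liver cancer line. Every listed peak whose annotated gene name was one of these genes was taken, which gave 35 of the 56159 peaks. FAIRE (formaldehyde-assisted isolation of regulatory elements) enriches protein-poor DNA after crosslinking, and its peaks mark open chromatin. The control cells carried a lentiviral scrambled small hairpin RNA (CT), and the NR2E3-depleted cells (KO II) carried a lentiviral small hairpin RNA against NR2E3, a nuclear receptor. Cells of both groups were grown alike, and each group gave 1 library. The comparison addresses which of these genes had open sites in both libraries, in the control library alone or in the NR2E3-depleted library alone. Because there was 1 library per group, no difference below has a replicate check and no p-value was computed.

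Sp and KLF factors share a set of C-terminal zinc fingers that read GC-rich promoter elements, the GC box and the related CACCC box. NFY is a trimer in which NFYB and NFYC pair through histone folds and NFYA joins them to read the CCAAT box. Both kinds of element stand close to the start of many widely used genes, and several Sp and KLF genes carry them in their own promoters.

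To show which of these elements lay under the open promoters of the factor genes themselves, stretches of 200 bases from their promoter peaks are printed from the hg38 reference, 5′ to 3′ along the gene. Capitals mark 3 searched motifs on either strand, GGGCGG for Sp factors, the pentamer CCAAT for NFY and the CACCC form CCNCACCC for KLF factors. Matches of different motifs may overlap, and a match describes the letters and does not show that a factor bound there. The SP2 stretch comes from a peak that was listed under a neighbouring non-coding gene. Promoter peaks of KLF10 are described without sequence.
SP1 common peak, chr12:53379698-53379897, plus strand: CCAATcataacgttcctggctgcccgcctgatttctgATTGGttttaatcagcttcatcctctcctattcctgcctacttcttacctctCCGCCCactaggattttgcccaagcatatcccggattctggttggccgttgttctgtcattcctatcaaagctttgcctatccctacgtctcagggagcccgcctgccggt
SP2 upstream common peak, chr17:47895778-47895977, plus strand: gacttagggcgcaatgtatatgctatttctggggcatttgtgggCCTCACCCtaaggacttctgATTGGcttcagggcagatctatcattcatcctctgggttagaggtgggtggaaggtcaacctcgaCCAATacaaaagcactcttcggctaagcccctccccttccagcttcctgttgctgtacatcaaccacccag
SP3 depleted-specific peak, chr2:173966589-173966788, minus strand: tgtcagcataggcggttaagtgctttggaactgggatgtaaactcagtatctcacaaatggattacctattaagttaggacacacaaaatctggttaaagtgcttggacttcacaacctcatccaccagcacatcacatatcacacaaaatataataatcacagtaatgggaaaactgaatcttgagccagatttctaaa
SP4 common peak, chr7:21427235-21427434, plus strand: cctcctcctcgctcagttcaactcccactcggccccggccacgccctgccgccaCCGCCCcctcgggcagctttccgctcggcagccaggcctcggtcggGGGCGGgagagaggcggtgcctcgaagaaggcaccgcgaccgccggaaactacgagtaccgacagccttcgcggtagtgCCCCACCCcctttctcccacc
NFYA common peak, chr6:41072701-41072900, plus strand: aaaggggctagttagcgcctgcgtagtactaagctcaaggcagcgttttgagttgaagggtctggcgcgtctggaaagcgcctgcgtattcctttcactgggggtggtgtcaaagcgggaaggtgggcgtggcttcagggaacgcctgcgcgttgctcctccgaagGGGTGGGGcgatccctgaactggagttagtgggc
NFYC common peak, chr1:40708836-40709035, plus strand: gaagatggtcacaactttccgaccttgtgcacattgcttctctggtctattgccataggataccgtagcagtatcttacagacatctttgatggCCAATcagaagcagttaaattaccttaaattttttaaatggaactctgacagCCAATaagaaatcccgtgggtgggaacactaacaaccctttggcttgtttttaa
NFYC depleted-specific peak, chr1:40691448-40691647, plus strand: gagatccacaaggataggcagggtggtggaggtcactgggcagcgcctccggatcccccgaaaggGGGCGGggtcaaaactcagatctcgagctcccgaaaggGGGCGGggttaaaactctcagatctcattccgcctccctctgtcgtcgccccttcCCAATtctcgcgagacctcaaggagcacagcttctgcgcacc
KLF5 depleted-specific peak, chr13:73058678-73058877, plus strand: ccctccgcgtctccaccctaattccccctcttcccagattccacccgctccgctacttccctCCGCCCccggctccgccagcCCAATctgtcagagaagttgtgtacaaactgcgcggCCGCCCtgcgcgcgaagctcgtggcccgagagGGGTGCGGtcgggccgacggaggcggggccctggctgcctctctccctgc
KLF6 common peak, chr10:3785330-3785529, minus strand: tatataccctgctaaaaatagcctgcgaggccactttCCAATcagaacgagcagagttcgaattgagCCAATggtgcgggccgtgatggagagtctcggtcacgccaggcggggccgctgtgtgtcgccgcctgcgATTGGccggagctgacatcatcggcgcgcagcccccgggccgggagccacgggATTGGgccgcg

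The stretches differed widely in content. KLF6 held 4 CCAAT boxes and no GGGCGG in its stretch, whereas the NFYC stretch of the depleted-specific list held 2 GGGCGG and 1 CCAAT. The SP3 stretch held none of the 3 motifs. The NFYA stretch held only a KLF match, so the peak at the gene of the CCAAT-reading subunit had no CCAAT.

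Listed peaks numbered 14368 in the common, 16236 in the control-specific and 25555 in the NR2E3-depleted-specific list (depleted-specific below), and how peaks were assigned to them is not stated. Listed scores were whole multiples of 0.407 in the common and control-specific lists and of 0.507 in the depleted-specific list. Dividing by this step gave the tags behind each peak, and the lists' medians were 16 tags (common), 14 tags (control-specific) and 12 tags (depleted-specific). The lowest listed peaks had 10 tags in the control-specific and 8 tags in the depleted-specific list, and the inferred depth of the depleted library was 0.802 times that of the control library. Common peaks carry scores on the control scale alone, so their level after depletion was not analysed here. Of 8 hepatocyte marker genes, 5 had a common promoter peak, among them HNF4A, FOXA2 and SERPINA1, beside 15% of protein-coding genes. The plasma protein genes ALB and AFP had peaks but none at the promoter, and TTR had no peak. No promoter peak was listed for 4 leukocyte and 4 muscle or fibroblast marker genes, and 2 genes in each set had a peak of another class, beside any-list shares over protein-coding genes of 28.8% for promoter peaks and 52.8% for peaks of any class. NR2E3 itself had 1 listed peak, a depleted-specific intergenic peak of 14 tags at -9266 bp, and FAIRE does not measure its transcript.

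Open sites at the factor genes were mostly common or depleted-specific. The 35 peaks comprised 9 common, 2 control-specific and 24 depleted-specific peaks, and 9 of the 10 genes had at least 1 of them. Over all 20037 protein-coding genes, 52.8% had a peak in any list. Depleted-specific peaks were found at 8 of the 10 genes, beside 37.0% of protein-coding genes, and control-specific peaks at 2 of them (SP2 and SP3), beside 21.4%. NFYB, which encodes a histone-fold subunit of NFY, had no peak in any list, and no peak lay over its promoter by position.

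**Figure D1:**
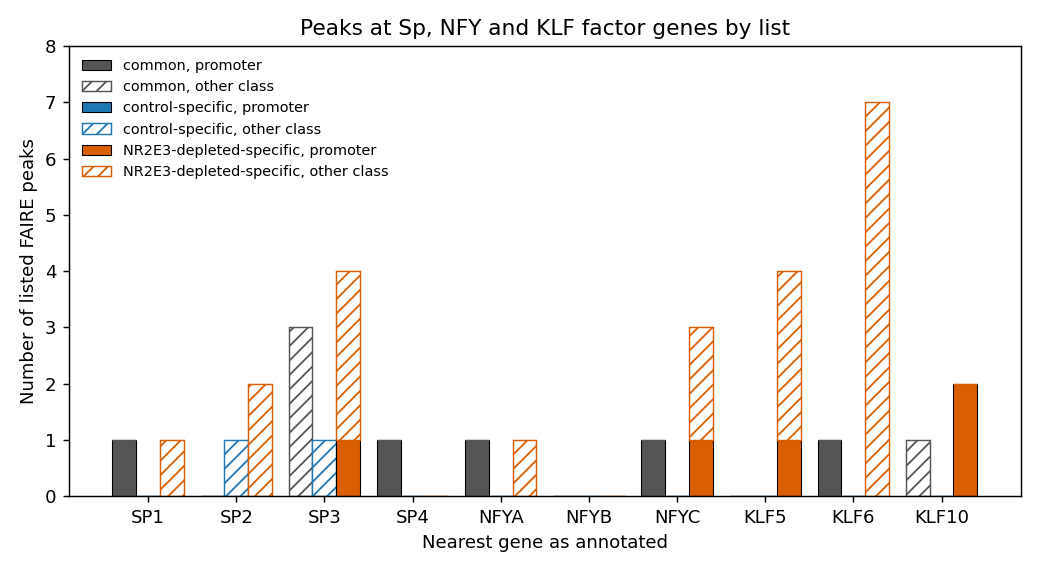
Number of listed FAIRE peaks (y axis) at each of the 10 genes (x axis), with a bar per list, where filled parts are peaks of the promoter class and hatched parts are peaks of other classes. KLF6 has 7 depleted-specific peaks and no control-specific peak, KLF5 has 4 depleted-specific peaks alone, and NFYB has none.

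Depleted-specific peaks outnumbered control-specific peaks at these genes by a ratio of 12.0, with an exact binomial 95% interval of 2.98 to 105.0, and the ratio over all peaks was 1.57 (1.54 to 1.61). These intervals cover counting error only and take peaks as independent, although 11 of the 24 depleted-specific peaks lay at KLF5 and KLF6. They also leave out the choice of the genes, which was made with earlier results of these data known. The 20 other Sp and KLF genes had 20 depleted-specific and 11 control-specific peaks. Whole chromosomes differed as well, since over the chromosomes that hold these genes the same ratio ran from 1.55 on chromosome 2, which holds SP3, to 3.42 on chromosome 13, which holds KLF5. It was 1.62 for the chromosome of NFYA and 1.69 for that of SP2. The chromosomes of all the other genes had ratios of 2.64 or more. Counted over the gene spans, whatever gene a peak was named for, there were 11 depleted-specific and 2 control-specific peaks, a ratio of 5.5 (1.2 to 51.1), an alternative chosen after the data were seen. The lowest listed peaks had 10 tags (score 4.07) in the control-specific and 8 tags (score 4.06) in the depleted-specific list. The part of chromosome and of the lower tag threshold of the depleted-specific list in the ratio was not tested. Of the 11 control-library peaks at the factor genes 9 were common (81.8%, exact Clopper-Pearson interval 48.2% to 97.7%), compared with 46.9% of all control-library peaks. In the depleted library 9 of 33 were common (27.3%, 13.3% to 45.5%), compared with 36.0% of all its peaks.

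Promoter peaks, as classed in the deposited annotation, were listed for 8 of the 10 genes, beside 28.8% of protein-coding genes. In the common list 5 genes had one (SP1, SP4, NFYA, NFYC and KLF6), beside 15%. The depleted-specific list held promoter peaks of 4 genes (SP3, NFYC, KLF5 and KLF10), beside 11.9%. None of the 10 genes had a control-specific promoter peak, beside 3.73%. A depleted-specific promoter peak without a promoter peak in the common or control-specific lists was found at 3 genes (SP3, KLF5 and KLF10), beside 10.7%.

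**Figure D2:**
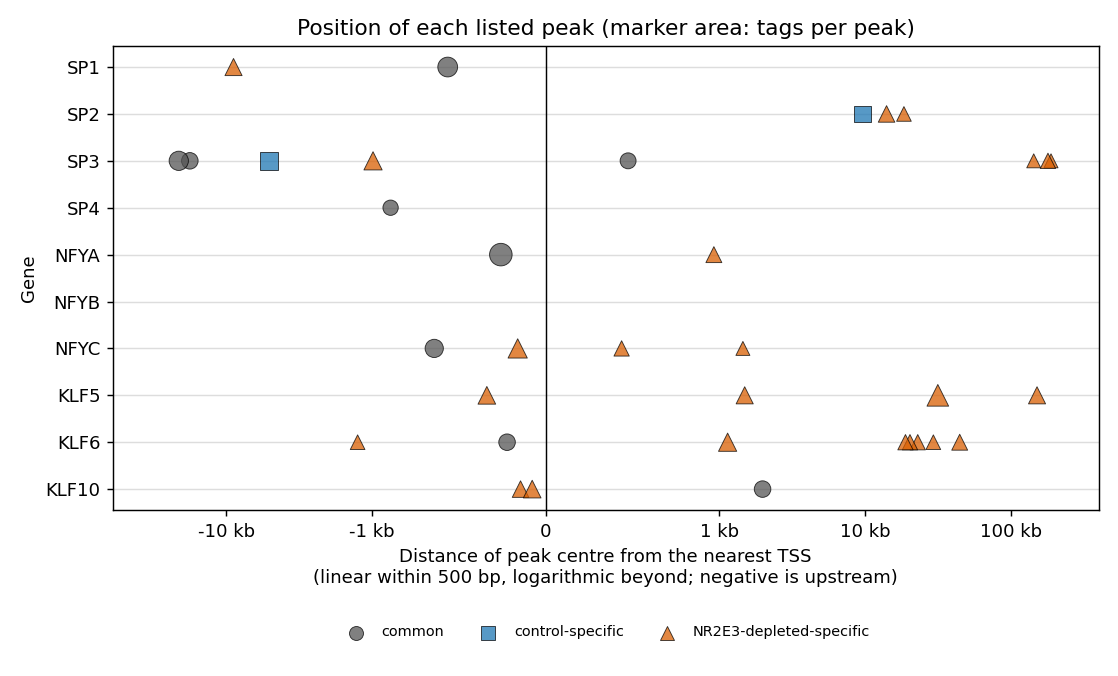
Distance of each peak centre from the nearest transcription start site of its gene (x axis, bp, linear within 500 bp and logarithmic beyond) for the 10 genes (y axis), with marker area proportional to tags and colour and shape giving the list. SP1, SP4, NFYA, NFYC and KLF6 have a common peak within 1000 bp upstream of a start, and depleted-specific peaks of SP2, SP3, KLF5 and KLF6 reach beyond 10 kb.

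Among the Sp genes, the common promoter peaks belonged to SP1 and SP4. SP1, the founding member of the family and an activator in nearly all cell types, lies on chromosome 12 from 53380176 to 53416446 (plus strand). Its common promoter peak (53379648 to 53379948) stood at -378 bp with a score of 8.13, or 20 tags (exact Poisson 95% interval 12.2 to 30.9). Its other listed peak was depleted-specific and intergenic, at -8939 bp, with a score of 7.6, or 15 tags (8.4 to 24.7). The SP1 promoter was thus listed as open in both libraries, and the upstream site 8.56 kb away was listed after depletion only.

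SP4, a relative with high expression in neurons, had a single listed peak, in the common list. That promoter peak (chromosome 7, 21427185 to 21427485) stood at -748 bp with a score of 4.88, or 12 tags (6.2 to 21.0). It was the lowest of the member promoter peaks and lay at the 2.38 percentile of common promoter peaks by score. No control-specific or depleted-specific peak fell within 250 kb of the gene.

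SP3, which reads the same GC box as SP1 and can activate or repress, had 8 peaks, as many as KLF6. The gene spans 173880850 to 173965373 on chromosome 2 (minus strand). A common peak (173965234 to 173965534) covered its 5′ UTR, in exon 1 of 7, at +318 bp with a score of 5.29, or 13 tags (6.92 to 22.2). The depleted-specific promoter peak (173966539 to 173966839) stood at -987 bp with a score of 8.62, or 17 tags (9.9 to 27.2), and its centre was 1305 bp upstream of the common peak. The start of SP3 was therefore open in both libraries, and the peak classed as its promoter was an additional upstream site. Upstream, common peaks of 14 and 19 tags were listed at -17820 and -21225 bp, and a control-specific peak of 17 tags at -5128 bp. On the far side of the gene's 3′ end 3 depleted-specific peaks of 10 to 12 tags lay 143782 to 188938 bp from the start, with no protein-coding gene between. By annotated name SP3 had peaks in all 3 lists, as no other of the 10 genes did. By position within the gene spans SP2 and NFYA had them instead, and SP3 had only its common 5′ UTR peak.

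SP2, a widely expressed Sp factor, had 3 listed peaks and no promoter peak under its own name. The gene lies on chromosome 17 from 47896150 to 47928957 (plus strand). Its control-specific peak stood at +9661 bp with a score of 5.69, or 14 tags. The depleted-specific peaks stood at +14070 bp with a score of 7.1, or 14 tags, and at +18513 bp with a score of 5.58, or 11 tags. All 3 lay in introns and overlapped the antisense gene SP2-AS1, and the control-specific peak and the nearer depleted-specific peak were 4.41 kb apart with the same number of tags. By position, a common promoter peak (47895728 to 47896028) of score 8.54, or 21 tags, lay just upstream of the SP2 start. The annotation named it for the divergent non-coding gene LOC102724532, at -62 bp from that gene's start, so it could belong to either gene.

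Of the NFY genes, NFYA had the strongest promoter peak of the 10 genes by tags. NFYA encodes the subunit that reads the CCAAT sequence and lies on chromosome 6 from 41072974 to 41102403 (plus strand). Its common promoter peak (41072651 to 41072951) stood at -173 bp with a score of 10.6, or 26 tags (17 to 38.1), at the 92.5 percentile of common promoter peaks. The peak also falls within the span of OARD1, a neighbouring gene. A depleted-specific peak of score 6.59, or 13 tags, lay in intron 1 of 8 at +920 bp, 1093 bp from the common peak. Both NFYA peaks therefore sat at the start of the gene.

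NFYC, the histone-fold partner of NFYB, had open sites at 2 annotated starts. The gene lies on chromosome 1 from 40691648 to 40771603 (plus strand). At the start of the transcript NM_014223 a depleted-specific promoter peak (40691446 to 40691746) stood at -108 bp with a score of 9.63, or 19 tags (11.4 to 29.7). At the downstream start of NM_001308115 a common promoter peak (40708786 to 40709086) stood at -430 bp with a score of 6.91, or 17 tags (9.9 to 27.2). The outer start was thus listed after depletion only, and the inner start, 17.3 kb away, in both libraries. The outer peak also overlapped the antisense gene NFYC-AS1. Depleted-specific intronic peaks of 12 and 10 tags followed the inner start at +293 and +1455 bp, and the nearer of them lay 723 bp from the common peak.

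The 3 KLF genes held 13 of the 24 depleted-specific peaks, 2 common peaks and no control-specific peak. The 4 Sp genes held 7 depleted-specific, 5 common and 2 control-specific peaks, and the NFY genes 4, 2 and 0. At least 1 control-specific peak was listed for 21.4% of protein-coding genes. The 20 other Sp and KLF genes held 11 control-specific peaks, so their absence applies to the 3 KLF genes taken here and not to the family. KLF5 and KLF6 each had at least 4 depleted-specific peaks and no control-specific peak, a combination chosen after the values were seen, which 0.863% of protein-coding genes showed.

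KLF5, which promotes proliferation in many epithelia, lies on chromosome 13 from 73054976 to 73077541 (plus strand), and all 4 of its peaks were depleted-specific. The promoter peak (73058628 to 73058928) stood at -227 bp from the start of NM_001730 with a score of 8.11, or 16 tags (9.15 to 26.0). A peak in intron 1 of 3 stood at +1497 bp with a score of 7.6, or 15 tags. The highest peak at any of the 10 genes by score was intergenic, at +31616 bp, with a score of 12.2, or 24 tags (15.4 to 35.7), and lay at the 99.5 percentile of the depleted-specific list. A further intergenic peak stood at +151512 bp with a score of 7.6, or 15 tags. No common or control-specific peak lay within 250 kb of KLF5, where 4 depleted-specific peaks were listed. Peaks were sparse on all of chromosome 13, with 137 common, 80 control-specific and 274 depleted-specific peaks. These were the lowest numbers among the chromosomes that hold the 10 genes. How often a window of this size lacks common and control-specific peaks was not tested. Each of the 4 peaks had 15 tags or more, above the list median of 12. Only the interval of the peak at +31616 bp lay wholly above that median, and the others included it.

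KLF6, a zinc-finger factor known as a growth suppressor in liver cells, spans 3775996 to 3785281 on chromosome 10 (minus strand). Its common promoter peak (3785280 to 3785580) stood at -149 bp with a score of 5.69, or 14 tags (7.65 to 23.5). The other 7 peaks were depleted-specific and none was classed as promoter. The highest of them lay in intron 1 of 3 at +1143 bp with a score of 8.62, or 17 tags (9.9 to 27.2), and the nearest upstream peak stood at -1259 bp with 11 tags. The remaining 5 peaks formed a row beyond the 3′ end, from +18963 to +44665 bp, with 11 to 13 tags each. Of these, the peaks at +23026 and +29464 bp lay within the long non-coding gene ENSG00000229672. The peak at +44665 bp was annotated to an intron of the non-coding transcript NR_131187. The peak at -1259 bp lay within another long non-coding gene, ENSG00000288755, so these sites could belong to other genes. KLF6 thus had an open promoter in both libraries and 7 additional sites listed under its name after depletion. They had 11 to 17 tags, each with an interval that includes the list median of 12 tags. Within 250 kb of KLF6 there were 12 depleted-specific, 3 common and 1 control-specific peaks, and the chromosome as a whole had 3.34 depleted-specific peaks for each control-specific peak.

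KLF10, an early response gene of TGF-beta signalling, spans 102648784 to 102655725 on chromosome 8 (minus strand). In the deposited annotation it had depleted-specific peaks at the starts of NM_005655 and NM_001032282. The peak at the start of NM_005655 (102655627 to 102655927) stood at -52 bp with a score of 8.11, or 16 tags (9.15 to 26.0). The peak at the start of NM_001032282 (102653911 to 102654211) stood at -97 bp with a score of 7.1, or 14 tags (7.65 to 23.5). A common peak of score 5.69, or 14 tags, lay in exon 3 of 4 at +1985 bp. By position on GENCODE starts, only the peak at -52 bp lay over a promoter. A peak in the gene body of KLF10 was thus in the common list, and its peaks classed as promoter were in the depleted-specific list.

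**Figure D3:**
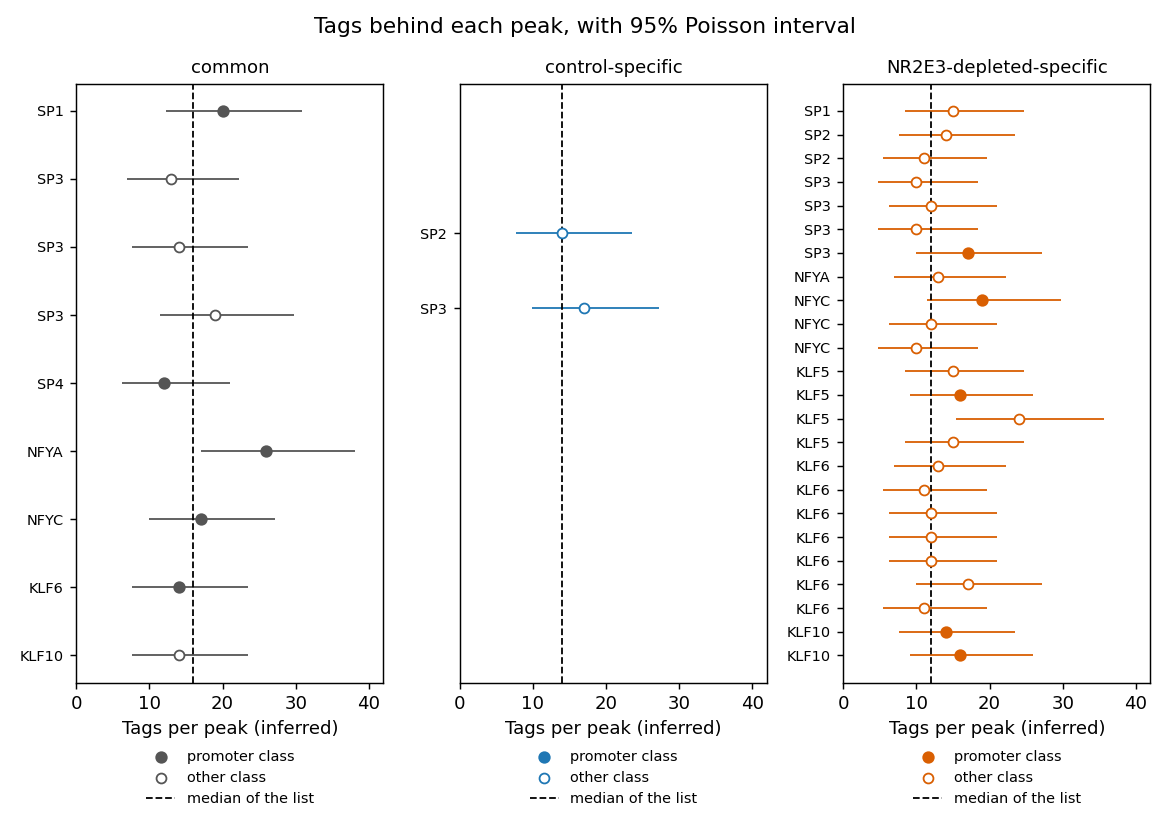
Inferred tags (x axis) behind each of the 35 peaks in the common, control-specific and depleted-specific lists (panels), with exact Poisson 95% intervals, filled points for promoter peaks, open points for other classes and a dashed line at the median of the whole list. The NFYA common peak (26 tags) and the KLF5 peak at +31616 bp (24 tags) have intervals wholly above it, and the other intervals reach or cross it.

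The tag numbers separated few peaks. Scores at the factor genes ran from 4.88 to 10.6 in the common list, from 5.69 to 6.91 in the control-specific list and from 5.07 to 12.2 in the depleted-specific list. The member median in the depleted-specific list was 13 tags, beside 12 for the whole list, and in the common list 14 tags, beside 16. By score within its own list, the promoter percentile ran from 2.38 (SP4) and 21.9 (KLF6) through 53.8 (NFYC) and 73.7 (SP1) to 92.5 (NFYA) in the common list. Counting error leaves much of that order unresolved, since the interval of the SP1 peak spans the 2.38 to the 96.4 percentile. In the depleted-specific list the percentiles were 60.4 and 77.6 (KLF10), 77.6 (KLF5), 83.4 (SP3) and 91.6 (NFYC), all with intervals that overlap.

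Of the 24 depleted-specific peaks, 11 lay within 2 kb of a start and 12 lay beyond 10 kb, and 9 of those 12 were intergenic. Over the whole depleted-specific list 16.7% lay within 2 kb and 66.5% beyond 10 kb, and 49.0% of the latter were intergenic. By class 5 of the 24 were promoter, 8 intron and 11 intergenic peaks, beside 11.1%, 44.1% and 40.0% of the whole list. In the common list 7 of 9 peaks lay within 2 kb of a start, beside 29.9% of that list. The 2 control-specific peaks lay at -5128 bp (SP3) and +9661 bp (SP2), so neither was close to a start.

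Base content varied widely among the promoter peaks of these genes. The GC content of the 10 member promoter peaks had a median of 65.0% (36.5% to 72.1%), and over all 7179 promoter peaks with reference sequence the median was 62.1%. The 25 other member peaks had a median of 46.5%, beside 43.9% over all peaks outside promoters. KLF10, at 72.1% and 70.1%, and KLF6, at 70.4% with 38 CpG sites, were the richest. The SP3 depleted-specific peak, at 36.5% with 1 CpG, and the NFYC common peak, at 38.2% with 3 CpG, were the poorest, well below the promoter median. At NFYC the depleted-specific outer promoter was GC-rich, with 62.8% and 23 CpG, and the common inner promoter was the poor one. At SP3 the pattern was the other way, with the common 5′ UTR peak at 65.1% and 29 CpG.

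The Sp and NFY motifs were found in most of these promoter peaks and the KLF motif in fewer. GGGCGG was present in 7 of the 10 promoter peaks, from 6 genes (SP1, SP4, NFYC, KLF5, KLF6 and KLF10), and in 62.3% of all promoter peaks. CCAAT was present in 8 of the 10, from the same 6 genes, and in 44.7% of all promoter peaks. The KLF form CCNCACCC was present in 4 of the 10, from SP4, NFYA, KLF5 and KLF10, and in 16.4% of all promoter peaks. All 3 motifs stood together in 3 of the 10 peaks, those of SP4, KLF5 and the KLF10 peak at -52 bp, and in 5.04% of all promoter peaks. KLF6 held 4 CCAAT matches, as did the peak upstream of SP2, where some matches on opposite strands overlapped. Over all promoter peaks 2.54% held 4 or more, a threshold taken from the count in these peaks. None of the motifs stood in the SP3 depleted-specific peak, a state shared by 19.4% of promoter peaks.

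**Figure D4:**
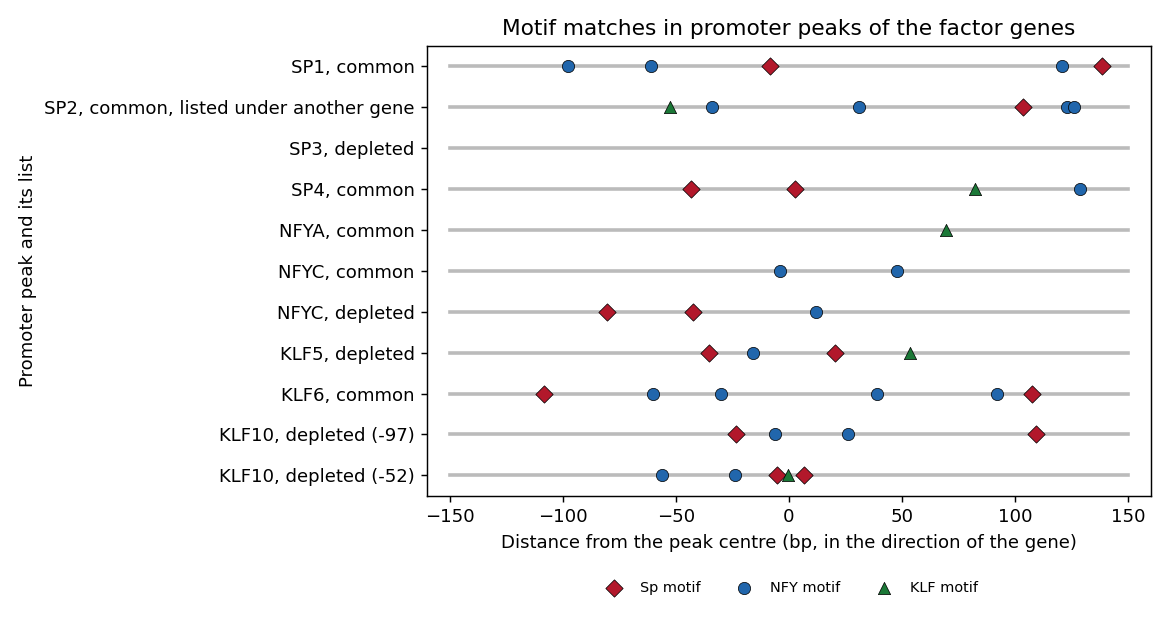
Position of Sp, NFY and KLF motif matches (markers) relative to the peak centre (x axis, bp, in the direction of the gene) in the 10 promoter peaks of the factor genes and in the common peak upstream of SP2 that was listed under another gene (y axis). KLF5 and the KLF10 peak at -52 bp hold all 3 motifs within 100 bp of the centre, and the SP3 peak holds none.

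Motif counts were close between the common and depleted-specific promoter peaks of these genes. GGGCGG was present in 3 of 5 common and 4 of 5 depleted-specific promoter peaks, and the shares over all promoter peaks were 65.2% and 64.6%. CCAAT was present in 4 of 5 in each list, beside 50.1% and 40.9%. The KLF form was present in 2 of 5 in each list, beside 16.5% and 16.7%. In the 25 peaks outside promoters GGGCGG was present in 3 (all peaks outside promoters, 5.94%), CCAAT in 10 (36.5%) and the KLF form in 1 (6.99%). In RefSeq promoter windows, from 250 bases before to 50 bases after a start on hg38, 8 of the 10 genes had an entry. These genes had 14 windows, since a gene with several starts has several windows, which may overlap. GGGCGG was present in 10 of the 14, beside 45.0% of all 35116 windows, CCAAT in 11, beside 34.6%, and the KLF form in 3, beside 18.3%. NFYA, whose peak held no CCAAT, had a match in its window.

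Of the 20 other Sp and KLF genes, promoter peaks were listed for 5 and peaks of any class for 13, beside 28.8% and 52.8% of protein-coding genes. Their peaks were 4 common, 11 control-specific and 20 depleted-specific. Common promoter peaks were listed for SP5 (22 tags), KLF7 (18 tags) and KLF16 (18 tags). KLF13 had a control-specific promoter peak of 16 tags at -301 bp, and SP6 a depleted-specific promoter peak of 16 tags at +23 bp. Among 5 histone-fold relatives of NFY, DRAP1, the partner in the transcriptional repressor NC2, had a depleted-specific promoter peak of 14 tags at -127 bp, and CHRAC1 a common promoter peak of 17 tags. Of 9 co-factor genes, SIN3A, a co-repressor scaffold, had a common promoter peak of 26 tags. The deacetylase gene HDAC1 and the acetylase gene CREBBP had depleted-specific promoter peaks of 19 tags at -145 bp and 12 tags at -141 bp. EP300, HDAC2, CTBP1 and CTBP2 had no peak in any list. Depleted-specific promoter peaks were thus listed for 1 of 20, 1 of 5 and 2 of 9 genes of these lists, beside 11.9% of protein-coding genes.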

How the data were processed

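FAIRE DNA from 1 control and 1 NR2E3-depleted HepG2 library was sequenced, and samples were grouped by the treatment given in the labels. The authors used bcl2fastq 2.17, Trimmomatic 0.39, Bowtie2 2.4.5 and SAMtools 1.14 per the labels, aligned to hg38, and called and annotated peaks with HOMER. The deposited score of each peak is the authors' value, a tag number scaled to the library. Input samples are mentioned in the study's protocol, but their use in peak calling, and any copy number correction, is not stated in the sources used here.

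From the 3 deposited annotation lists, peaks were taken by gene name. Within rounding (0.005), each list had a step that divided 100% of its scores under 10 into whole numbers, which were read as tags. On a scale of 10 M (mega) tags, the HOMER default, which is not stated in the sources used here, depths were 24.6 M (control) and 19.7 M (depleted) tags. Intervals (95%) were exact Poisson, Clopper-Pearson or binomial and cover counting error only, since reads without molecular identifiers are not independent molecules. The background was 20037 RefSeq protein-coding genes, and 10569 of 10676 protein-coding names in the lists matched. Gene spans came from GENCODE 44, and sequences from hg38 and RefSeq promoters. Motifs were searched over the whole peak, on both strands.

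All 10 genes were named, with listed relatives, co-factors and neighbours that have a promoter peak or share one. The genes and lists were chosen with earlier results of these data known, and 1 marker gene of the lists is not reported here. Alternatives covered promoter definition, 15 tags or more, sharing distance, merging, gene span, distance limit, chromosomes and motif window. The score step, the motif search, the distance to the other library and the Poisson and binomial intervals were tested on simulated data. The other steps were not. Calculations ran in Python 3.11.15 (scipy 1.17.1, pandas 2.3.3, numpy 2.4.6), and plots in matplotlib 3.10.9.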

Additional observations from a re-analysis of the deposited data

How the results depend on the processing

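Under the alternatives 52 values stayed within 1.5 times the reported count or within its counting interval, and 5 moved. These limits were wide, from 2.98 to 105.0 for the ratio and, for example, 2.38 to 96.4 for the SP1 percentile. The control-specific promoter count was 0 in every setting. Many of the 52 values could therefore hardly move. With peaks of at least 15 tags, members with a common promoter peak fell to 3, common peaks at the 10 genes to 4, control-specific peaks to 1 and depleted-specific peaks to 9. Fewer peaks enter by construction there. Counting only peaks inside the gene spans gave 11 depleted-specific peaks, because peaks outside the spans are then left out. These were mostly distal, and included the SP3 promoter peak at -987 bp and the KLF6 peak at -1259 bp. The ratio of depleted-specific to control-specific peaks was 9.0 with at least 15 tags and 11.5 when specific peaks within 1000 bp of a peak of the other library were counted as common. Peaks in the gene spans gave 5.5 and peaks within 100 kb of a start gave 10.0, settings chosen after the data were seen. Outside chromosomes 2, 6 and 17 the counts were 17 and 0, which give no ratio and were left out of the tally. By position, common promoter peaks were found at 7 genes, with SP2 and SP3 added, and depleted-specific ones at 3, without SP3. No paired analysis was possible because neither group held more than 1 library, which also meant that none could be left out. At 10 to 26 tags per peak, presence in a single list is measured with low precision, and an unlisted site is not shown to be closed.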

Other observations

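Some peaks inside the gene spans were listed under other names. The span of NFYA held a control-specific peak of 15 tags (score 6.1) in a 3′ UTR, listed under OARD1, so that a control-specific site lay within NFYA although none carried its name. The span of NFYC held a common intronic peak of 18 tags (score 7.32), listed under the microRNA gene MIR30C1. Peak numbers within 250 kb also differed in direction between the genes. Around NFYA there were 20 control-specific and 12 depleted-specific peaks, around SP2 there were 9 and 16, and around NFYB, which had no peak of its own, 1 and 2, with 4 common peaks.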
